A study of Mus musculus with 9 samples.

Results

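The Myc, Max and Mxd network was followed through 10 genes listed by symbol, namely *Myc*, *Mycn*, *Mycl*, *Max*, *Mnt*, *Mxd1*, *Mxd3*, *Mxd4*, *Mga* and *Mlx*. They are 10 of the 29069 genes in the table of normalised counts, and all 10 were among the 18156 genes whose mean over the 9 samples was above 5 and which were tested. Mouse embryonic stem cells (mESC) of the established D3 line, grown without a feeder layer, were kept for 24 h in 1 of 3 media, and total RNA depleted of ribosomal RNA was sequenced from 3 samples per medium. Ground-state medium (GS) was serum-free N2B27 that held 1 μM PD0325901, which blocks MEK, 3 μM CHIR99021, which blocks GSK-3, and 20 ng/mL of the cytokine LIF. Spontaneous differentiation medium (DM) was DMEM with 10% fetal bovine serum (FBS), glucose at 1 g/L, glutamine and 2-mercaptoethanol, with neither inhibitor and no LIF. The third medium (NO) was DM to which 250 μM of the nitric oxide donor DETA/NO had been added. DM vs. GS and NO vs. GS therefore changed the base medium, the serum, both inhibitors and LIF at once, whereas NO vs. DM changed the donor alone. All samples came from 1 line at 1 time point. Per the methods of the study, each sample had its own dish, and the labels do not say whether the dishes were independent experiments. The p-values therefore measure the spread between these samples, which may be no more than that between dishes.

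Myc, N-Myc and L-Myc are basic helix-loop-helix leucine zipper proteins that bind DNA as dimers with Max and activate genes of growth and ribosome assembly. Mxd proteins and Mnt compete for Max and bring Sin3 and NCoR corepressors to the same sites, Mga joins Max in the variant Polycomb complex PRC1.6, which keeps germline genes silent in mESC, and Mlx pairs with the glucose-sensing factors MondoA and ChREBP. In mESC, Myc and N-Myc are known for their part in self-renewal, and Myc protein is short-lived because phosphorylation by GSK-3 marks it for destruction. Only RNA was measured here, so protein levels and dimers are not covered.

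Dimers of the network recognise the E-box CACGTG, which reads the same on both strands. It was searched for in RefSeq promoter windows (GRCm38.p6, from 250 bases before to 50 after a gene's start), in which 9 of the 10 genes had an entry. It was found in 4 of these 9 genes, *Max*, *Mnt*, *Mxd4* and *Mlx*, and in 8.09% of the 27025 genes in the promoter table. *Myc* was not matched. The 4 sites are shown with 10 bases on either side, 5′ to 3′ on the strand of the gene and with the E-box in capitals, because they are copies, in the network's own genes, of the letters its dimers recognise.
Max: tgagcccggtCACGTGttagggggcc
Mnt: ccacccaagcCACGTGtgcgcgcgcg
Mxd4: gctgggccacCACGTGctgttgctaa
Mlx: tgggttggatCACGTGactgagcctc
The *Max* window lies on the minus strand at chr12:76962236-76962261. The first base of its E-box is 3 bases before the start of the gene, so the E-box runs across the start. The other distances are likewise counted from the first base of the E-box. The *Mnt* window lies on the plus strand at chr11:74830791-74830816, 123 bases before the start. The *Mxd4* window is on the minus strand at chr5:34187914-34187939 with 219 bases to the start, and that of *Mlx* is on the plus strand at chr11:101087240-101087265 with 40 bases to the start. Of these 4 genes, only *Mxd4* passed a test between media, as given below. A match is a description of these letters and not evidence of binding.

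Estimated depth lay between 14300000 and 27100000 assigned reads per sample. Spearman correlations between replicates were 0.986 to 0.989 in GS, 0.979 to 0.991 in DM and 0.958 to 0.985 in NO, and NO replicate 2 stood apart. All 8 ES cell markers examined, *Pou5f1*, *Sox2* and *Nanog* among them, were detected in every medium, and their summed counts were 48665 in NO replicate 2 and 77499 to 88137 in the other 8 samples. Those of 7 primitive endoderm markers were 709 there and 113 to 351 elsewhere, and those of 7 trophoblast markers were 1244 there and 186 to 689 elsewhere. *Krt7* (484) and *Tfap2c* (426) made up most of that trophoblast sum, and *Gata3* and *Hand1* were also highest there. *Cdx2* (14) and *Eomes* (91) lay below all GS samples, and *Elf5* was at 4. *Gata4*, *Gata6*, *Sox17* and *Pdgfra* were highest in NO replicate 2, whereas *Sox7* (9), *Foxa2* (1) and *Dab2* (47) were not. In bulk RNA, fewer cells of a type and less RNA per cell cannot be told apart. The neuroectoderm marker sum of NO replicate 2, 1244, lay between those of the other NO samples, 1111 and 1394. Its mesoderm sum of 187 was above the 151 of both other NO samples, and its fibroblast sum of 283 was above their 202 and 217. *Twist2* was at 0 in all GS and DM samples, *Postn* in all DM samples and *Neurog2* in all GS samples. NO replicate 2 also had the lowest count among the NO samples for *Myc*, *Mycn*, *Mycl*, *Max* and *Mxd3* and the highest for *Mxd1* and *Mxd4*. Whether cells of other types were present, and their part in the results, was not tested. Results that rest on NO replicate 2 are given with and without it.

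*Myc* was higher in DM than in GS. This gene (ENSMUSG00000022346, chr15:61985391-61990374, plus strand, GRCm38) had normalised counts of 297, 503 and 339 in GS, 1222, 1046 and 988 in DM, and 655, 472 and 751 in NO. All DM samples lay above all GS and all NO samples, whereas the lowest NO sample lay below the highest GS sample. The mean was 379.7 ± 108.9 (SD, n = 3) in GS, 1085.3 ± 121.9 in DM and 626 ± 141.7 in NO. On the log2 scale, *Myc* rose by 1.54 ± 0.22 (SE) in DM vs. GS, which is 2.92-fold (adjusted p = 0.00154). It kept its direction and stayed under 0.05 when any 1 of the 9 samples was left out, at 1.39 to 1.77.

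NO fell between the other media for *Myc*. The log2 fold change was 0.73 ± 0.22 in NO vs. GS (adjusted p = 0.0372) and -0.81 ± 0.22 in NO vs. DM (adjusted p = 0.0318), neither reaching 2-fold. Both calls were lost when single samples were left out. Without NO replicate 2, the values were 0.92 (adjusted p = 0.0137) in NO vs. GS and -0.62 (adjusted p = 0.0993) in NO vs. DM. In NO vs. GS the adjusted p was over 0.05 in 5 of the 9 fits with 1 sample left out. With the replicate number as a block, NO vs. DM had an adjusted p of 0.0504 in the fit of all 9 samples and 0.0213 in a fit of the 6 samples compared, and NO vs. GS had 0.0594 and 0.0841.

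*Mycn*, which encodes N-Myc and was the most abundant of the Myc genes per length in every medium, passed in no comparison. The gene (ENSMUSG00000037169, chr12:12936093-12941914, minus strand) had counts of 1975, 1954 and 1736 in GS, 2571, 2542 and 2602 in DM, and 2059, 1049 and 1910 in NO. All DM samples lay above all others, and NO replicate 2 was far below the other NO samples, which fell in or just above the range of GS. The log2 fold change was 0.45 ± 0.21 in DM vs. GS (adjusted p = 0.272) and -0.68 in NO vs. DM (adjusted p = 0.0538). For DM vs. GS the adjusted p was 0.0213 without NO replicate 2 and 0.0305 in a fit of the GS and DM samples alone. For NO vs. DM it was 0.0134 without NO replicate 1, 0.0876 without NO replicate 2 and 0.0499 with the replicate block over the 6 samples compared. In NO vs. GS the log2 fold change was -0.23 (adjusted p = 0.474) and became 0.07 without NO replicate 2.

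*Mycl*, which encodes L-Myc (ENSMUSG00000028654, chr4:122995652-123002485, plus strand), was lower in NO than in DM. Counts were 1009, 923 and 1002 in GS, 1139, 1101 and 1100 in DM, and 897, 648 and 823 in NO. The 3 media did not overlap, with DM highest and NO lowest. Between NO and DM the log2 fold change was -0.51 ± 0.14 (adjusted p = 0.0357). This call was lost in 8 of the 9 fits with 1 sample left out, with an adjusted p of up to 0.103, and with the replicate block over the 6 samples compared (adjusted p = 0.058). The differences of 0.19 in DM vs. GS (adjusted p = 0.513) and -0.32 in NO vs. GS (adjusted p = 0.132) did not pass.

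*Max*, the shared partner of all Myc, Mxd and Mnt proteins and of Mga (ENSMUSG00000059436, chr12:76937269-76962201, minus strand), passed in no comparison. Counts were 1644, 1421 and 1541 in GS, 1772, 1752 and 1560 in DM, and 1417, 1154 and 1339 in NO. Each NO sample lay below each GS and DM sample, while GS and DM overlapped. The log2 fold changes were 0.14 in DM vs. GS (95% confidence interval -0.14 to 0.43), -0.24 in NO vs. GS (-0.52 to 0.05) and -0.38 in NO vs. DM (-0.67 to -0.1, adjusted p = 0.0708). The last was at an adjusted p of 0.0446 without NO replicate 1.

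**Figure D1:**
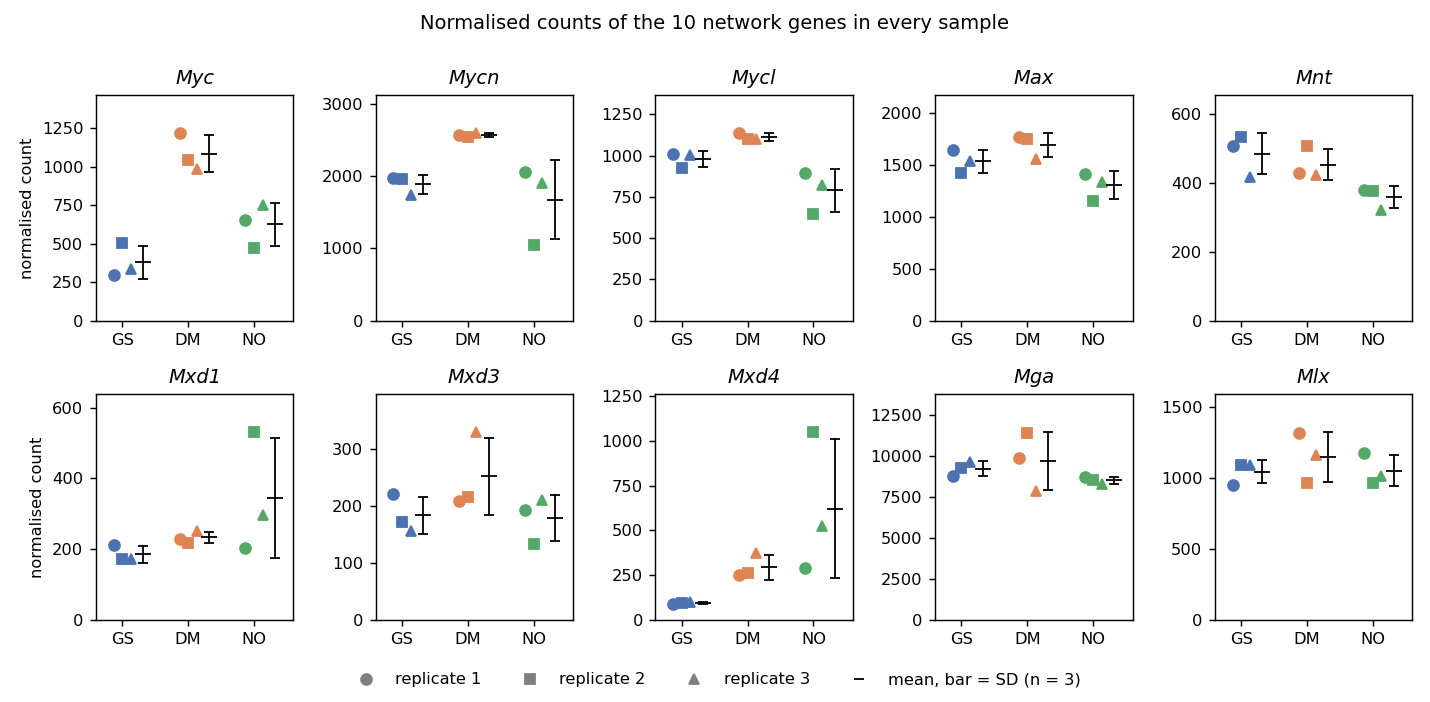
Normalised counts (vertical axes, starting at 0) of the 10 network genes in the 9 samples, grouped by medium on the horizontal axes, with 1 symbol per replicate number and black bars for the mean and SD of 3 samples. For *Myc*, DM (988 to 1222) lies above GS (297 to 503) and NO (472 to 751), and for *Mxd4* the NO samples spread from 291 to 1050 while GS stays between 88 and 102.

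*Mxd4* showed the widest range among the genes that encode repressors of the network. The gene (ENSMUSG00000037235, chr5:34173883-34187720, minus strand) had counts of 88, 95 and 102 in GS, 248, 259 and 371 in DM, and 291, 1050 and 522 in NO. Every DM and NO sample lay above every GS sample, while the lowest NO sample lay within the range of DM. Relative to GS, the log2 fold change was 1.59 ± 0.36 in DM (adjusted p = 0.0222, fold 3.01) and 2.50 ± 0.36 in NO (adjusted p = 0.0012, fold 5.67). The rise in NO vs. GS stayed under 0.05 without any 1 of the 9 samples and was 2.03 (adjusted p = 0.00073) without NO replicate 2. The rise in DM vs. GS kept its size, 1.41 to 1.70, but its adjusted p was 0.0533 to 0.0913 in each of the 6 fits that left out a GS or DM sample. The difference between NO and DM, 0.91, did not pass (adjusted p = 0.111). It was 0.44 (adjusted p = 0.357) without NO replicate 2 and 1.36 (adjusted p = 0.00587) without NO replicate 1. An exon of the model *Gm42846* on the opposite strand covers 6.1% of the exon bases of *Mxd4*, and use of the strand in counting was not stated.

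*Mxd1*, whose product Mad1 is known from cells leaving the cell cycle (ENSMUSG00000001156, chr6:86647042-86669161, minus strand), passed in no comparison. Its counts were 212, 172 and 171 in GS, 230, 218 and 251 in DM, and 202, 532 and 297 in NO. NO replicate 1 lay within the range of GS, and NO replicate 2 had the highest value by a wide margin. The log2 fold change in NO vs. GS was 0.78 ± 0.29 (adjusted p = 0.074), and it was 0.41 (adjusted p = 0.214) without NO replicate 2 and 1.11 (adjusted p = 0.00638) without NO replicate 1. *Mxd1* and *Mxd4* thus both had their highest value in NO replicate 2 and their lowest NO value in replicate 1.

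*Mxd3*, the member of the family known from dividing cells (ENSMUSG00000021485, chr13:55325168-55329823, minus strand), had counts of 221, 173 and 157 in GS, 210, 217 and 331 in DM, and 193, 133 and 211 in NO. All media overlapped. The log2 fold changes were 0.44 in DM vs. GS (95% confidence interval -0.09 to 0.97), -0.05 in NO vs. GS (-0.58 to 0.48) and -0.49 in NO vs. DM (-1.02 to 0.04). *Prelid1* on the opposite strand covers 4.4% of its exon bases. *Mnt*, a broadly expressed repressor (ENSMUSG00000000282, chr11:74830920-74845725, plus strand), had counts of 507, 534 and 418 in GS, 430, 507 and 425 in DM, and 381, 377 and 322 in NO. Each NO sample lay below each GS and DM sample, but the log2 fold changes of -0.43 in NO vs. GS (adjusted p = 0.0727) and -0.33 in NO vs. DM (adjusted p = 0.169) did not pass.

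*Mga* and *Mlx*, the arms of the network outside the pair of Myc and Mxd, passed in no comparison. *Mga* (ENSMUSG00000033943, chr2:119897228-119969581, plus strand) had counts of 8749, 9294 and 9626 in GS, 9859, 11390 and 7842 in DM, and 8722, 8561 and 8283 in NO. The samples of DM spread around those of the other media, and NO lay just below GS. Log2 fold changes were 0.06 in DM vs. GS (95% confidence interval -0.27 to 0.38), -0.11 in NO vs. GS (-0.44 to 0.21) and -0.17 in NO vs. DM (-0.5 to 0.16). *Mlx* (ENSMUSG00000017801, chr11:101087277-101092207, plus strand) had counts of 952, 1090 and 1091 in GS, 1318, 966 and 1160 in DM, and 1175, 962 and 1014 in NO, with all media overlapping. Its intervals were -0.20 to 0.45 in DM vs. GS, -0.32 to 0.33 in NO vs. GS and -0.45 to 0.20 in NO vs. DM on the log2 scale. *Psmc3ip* on the opposite strand covers 19.3% of the exon bases of *Mlx*.

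Counted over the network, 2 of the 10 genes rose in DM vs. GS, *Myc* and *Mxd4*, both by at least 2-fold. Of all genes tested, 6.69% passed in either direction and 4.37% were higher, and with the 2-fold minimum these shares were 4.2% and 2.94%. In NO vs. GS the same 2 genes passed, *Mxd4* alone by at least 2-fold, where 20% of all genes passed and 13.4% were higher, or 11.7% and 10.1% with the 2-fold minimum. *Myc* and *Mycl* were lower in NO vs. DM, neither by 2-fold, where 14.2% of all genes passed and 5.24% were lower, and 8.55% passed with the 2-fold minimum. The share of the members called was thus equal to that of all genes in NO vs. GS. The median log2 fold change of the 10 genes was 0.26, -0.08 and -0.36 in DM vs. GS, NO vs. GS and NO vs. DM, beside 0.00, -0.02 and 0.00 over all genes. Samples of the compared media did not overlap for 5 genes in each comparison, beside 29.6%, 39.1% and 33.4% of all genes. By the moderated F test over the 3 media, *Myc* (adjusted p = 0.00213) and *Mxd4* (adjusted p = 0.00219) differed, as did 23.3% of all genes. The comparisons share samples with each other and are not independent.

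**Figure D2:**
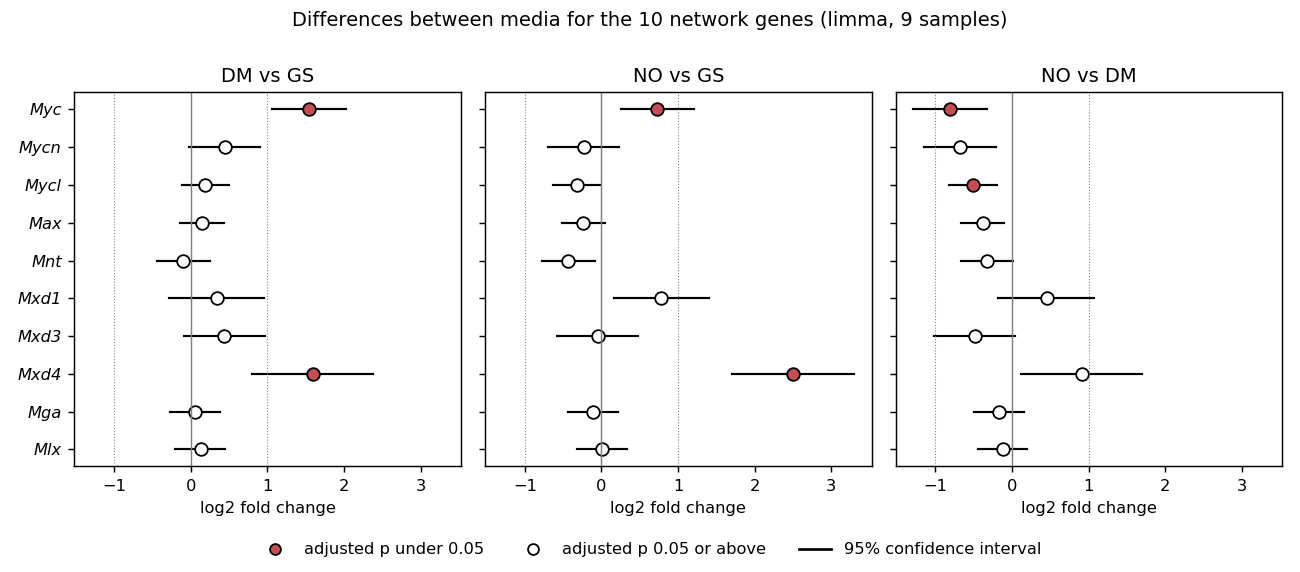
Log2 fold changes (horizontal axes, dotted lines at a 2-fold change) of the 10 network genes in DM vs. GS, NO vs. GS and NO vs. DM, with 95% confidence intervals as lines and filled points for an adjusted p under 0.05. *Myc* lies at 1.54, 0.73 and -0.81, *Mxd4* at 1.59, 2.50 and 0.91, and the intervals of *Mga* and *Mlx* include 0 in all comparisons.

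Levels were compared between genes as normalised counts per kilobase of exon. The length was that of all annotated exons of a gene joined, which can exceed that of the transcripts present. The order of genes, and the shares and ratios given below, depend on it. In GS the order of the means was *Mga* (601), *Mycn* (573), *Mlx* (522), *Max* (427), *Mycl* (242), *Myc* (140), *Mnt* (105), *Mxd3* (77.5), *Mxd1* (26.2) and *Mxd4* (11.2). The ranges of neighbours overlapped for *Mga* and *Mycn*, *Mycn* and *Mlx*, *Myc* and *Mnt*, and *Mnt* and *Mxd3*. In DM, *Mycn* (780) was highest and its samples lay above those of *Mga* (632), while *Mlx* (574), *Max* (471) and *Myc* (399) followed with ranges that overlapped from one to the next. *Myc* thus stood above *Mycl* (276) in DM and below it in GS, in both media without overlap. *Mxd3* (107) and *Mnt* (98.1) overlapped in DM, as did *Mxd4* (34.5) and *Mxd1* (32.9). In NO the highest means were *Mga* (556), *Mlx* (525), *Mycn* (508) and *Max* (362), each overlapping the next. *Myc* (230) overlapped *Mycl* (195) there, and *Mnt* (77.8), *Mxd3* (75.6), *Mxd4* (73.2) and *Mxd1* (48.6) formed a chain of overlapping ranges at the bottom.

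Summed per exon length, the Myc family was highest in DM. The sums of *Myc*, *Mycn* and *Mycl* were 959, 1010 and 900 in GS, 1510, 1430 and 1430 in DM, and 1090, 653 and 1060 in NO. *Myc* made up 11.4 to 18.4% of the sum in GS, 25.5 to 29.7% in DM and 22.2 to 26.6% in NO, so its share in NO lay above GS even in replicate 2, where the sum was lowest. The sums of *Mnt*, *Mxd1*, *Mxd3* and *Mxd4* overlapped among media, with 193 to 243 in GS, 243 to 311 in DM and 227 to 337 in NO. *Mxd4* made up 4.27 to 6.24% of this repressor sum in GS, 11.6 to 14.1% in DM and 15.1, 36.8 and 23.5% in the NO samples, without overlap between media. The ratio of the Myc sum to the repressor sum was 3.94, 4.5 and 4.67 in GS, 6.21, 5.44 and 4.59 in DM, and 4.8, 1.94 and 4.04 in NO. The ratio overlapped between media, and its lowest value was that of NO replicate 2. These sums were not tested, and an exact permutation test of 3 samples against 3 cannot go below p = 0.10.

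**Figure D3:**
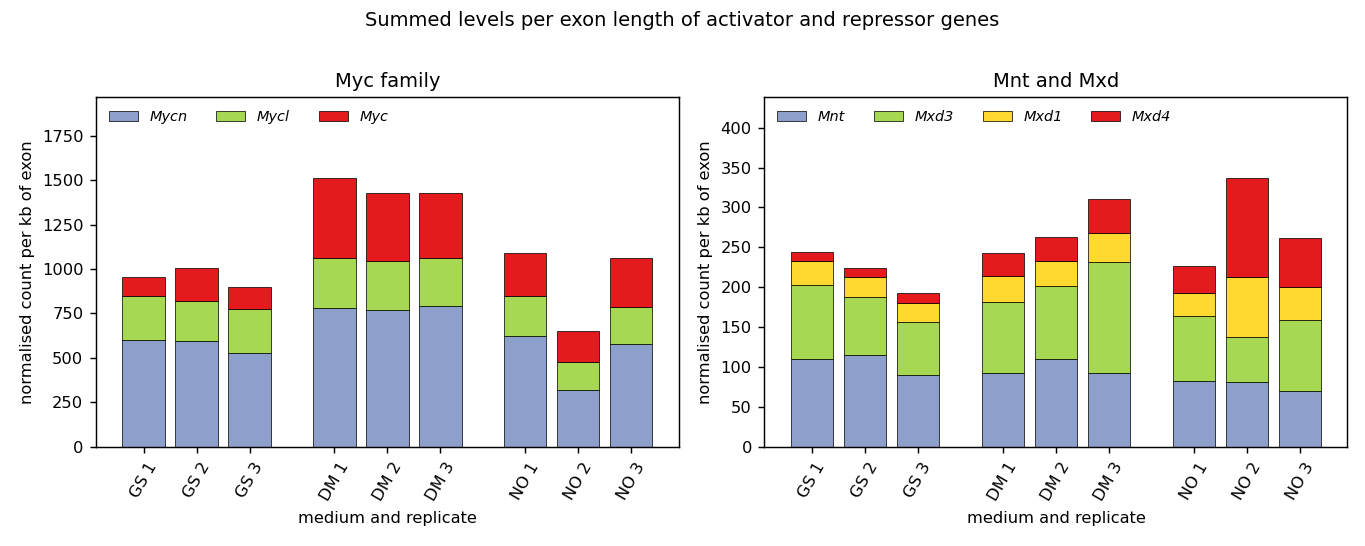
Normalised counts per kilobase of exon (vertical axes, starting at 0) stacked for the Myc family on the left and for *Mnt* and the Mxd genes on the right, with 1 bar per sample. The Myc family sum is 1430 to 1510 in DM and 653 in NO replicate 2, the sample in which *Mxd4* makes up 36.8% of the repressor sum.

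Genes whose products work beside the network were counted in the same fit. Of 3 further network genes, *Mlxipl*, which encodes ChREBP, was higher in NO than in GS by 0.89 ± 0.25 on the log2 scale (adjusted p = 0.0281), and *Mxi1*, an Mxd family repressor, was lower (-0.52 ± 0.16, adjusted p = 0.0428). *Mxi1* had counts of 845, 652 and 771 in GS and 613, 457 and 518 in NO, without overlap, while *Mxd4* moved the other way in the same comparison. Neither call held without NO replicate 2, at adjusted p = 0.0877 for *Mlxipl* and 0.118 for *Mxi1*. Against DM, neither passed as reported, while with the replicate block *Mxi1* was lower in the fit of all samples (-0.49, adjusted p = 0.0492) and *Mlxipl* higher in that of the 6 samples compared (0.77, adjusted p = 0.0462). *Mlxip*, which encodes MondoA, passed in none as reported. Of 17 genes for Sin3 and NCoR corepressors, none passed in DM vs. GS by limma, beside 6.69% of all genes, with 1 at an unadjusted p under 0.05. *Ing2*, a reader of histone methylation in the Sin3 complex, was lower in NO vs. GS (log2 fold change -0.92, adjusted p = 0.00906). It was the 1 gene of the list called there, beside 20% of all genes. *Sin3a*, the scaffold of the complex (-0.74, adjusted p = 0.0477), and *Ing1*, a reader related to *Ing2* (-0.44, adjusted p = 0.0488), were lower in NO vs. DM. They were the 2 genes of the list called there, beside 14.2% of all genes. The call of *Ing2* held without NO replicate 2 (adjusted p = 0.0212), and those of *Sin3a* (adjusted p = 0.133) and *Ing1* (adjusted p = 0.108) did not. With the replicate block over the 6 samples compared, 1 gene of this list was lower in NO vs. DM.

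Among 10 further partners of Mga and Max in PRC1.6, *L3mbtl2*, the subunit that reads methylated histones, was higher in DM than in GS (log2 fold change 0.58, adjusted p = 0.0329), and *Pcgf6*, the subunit that sets this complex apart from other Polycomb complexes, was lower in NO than in GS (-0.57, adjusted p = 0.0315). The call of *L3mbtl2* was lost when any 1 GS or DM sample was left out, and that of *Pcgf6* without NO replicate 2 (-0.43, adjusted p = 0.0901). By limma none of the 10 passed in NO vs. DM, beside 14.2% of all genes, with 1 higher and 1 lower at an unadjusted p under 0.05. *L3mbtl2* had counts of 4030, 4036 and 3436 in GS and 5450, 5171 and 6599 in DM, and *Pcgf6* 1055, 1114 and 1199 in GS and 945, 618 and 730 in NO. *E2f6* and the remaining partners passed in none. None of 15 coactivators and partners of Myc, among them *Trrap*, *Kat5* and *Zbtb17*, passed in any comparison by limma, with vooma weights or without. In the fit as reported, 6.69%, 20% and 14.2% of all genes passed in DM vs. GS, NO vs. GS and NO vs. DM. At an unadjusted p under 0.05, the genes lower numbered 1 in DM and 1 in NO against GS, and 3 in NO against DM.

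Of 13 genes for turnover of Myc protein, 1 passed in DM vs. GS, beside 6.69% of all genes, and 2 in NO vs. DM, beside 14.2%. By limma none passed in NO vs. GS, where 20% of all genes did, with 2 higher and 1 lower at an unadjusted p under 0.05. *Gsk3b*, a kinase that marks Myc for destruction and the target of CHIR99021, was lower in DM vs. GS (log2 fold change -0.66, adjusted p = 0.0478). No gene of the list was called lower there when any 1 GS or DM sample, or NO replicate 3, was left out. *Usp28*, a deubiquitinase that stabilises Myc, was lower in NO vs. DM (-1.22 ± 0.26, adjusted p = 0.0129), with counts of 5764, 5137 and 4561 in DM and 3394, 1339 and 2342 in NO. Its GS counts of 2811, 2678 and 2987 lay within the range of NO and below all DM samples. In DM vs. GS it did not pass as reported, but was higher without NO replicate 2 (0.86, adjusted p = 0.0037). *Fbxw7*, the ubiquitin ligase subunit that recognises phosphorylated Myc, was higher in NO vs. DM (0.86 ± 0.26, adjusted p = 0.0491). Its counts were 1177, 1135 and 820 in DM and 1260, 2965 and 1750 in NO. Every NO sample was below DM for *Usp28* and above DM for *Fbxw7*, and NO replicate 2 was the most extreme sample in both. Without it, *Usp28* passed (-0.86, adjusted p = 0.0111) and *Fbxw7* did not (0.53, adjusted p = 0.129).

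None of 53 textbook genes induced by Myc was called higher in DM vs. GS by limma, the comparison in which *Myc* rose 2.92-fold, beside 4.37% of all genes, and 5 were higher at an unadjusted p under 0.05. *Tfrc*, the transferrin receptor, was the 1 gene called lower (log2 fold change -0.83, adjusted p = 0.0286), beside 2.32% of all genes. Without NO replicate 2, 2 were called higher and 1 lower. The median log2 fold change of the list was 0.01, beside 0.00 over all genes. *Odc1*, the polyamine enzyme often used as a readout of Myc, had counts of 6742, 7069 and 7695 in GS and 11573, 8657 and 10446 in DM. They did not overlap, but the difference of 0.50 did not pass (adjusted p = 0.0806), and *Odc1* is named after its values were seen.

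Genes of the same list fell in NO. In NO vs. GS, 13 of the 53 genes were lower and 2 higher, with a median of -0.42, beside 6.64% lower among all genes and an all-gene median of -0.02. Compared with DM, 12 were lower and none higher (1 at an unadjusted p under 0.05), with a median of -0.40, beside 5.24% lower. The genes with the smallest adjusted p in NO vs. GS were *Tfrc* (-1.30, adjusted p = 0.0015), the nucleolar proteins *Ncl* (-0.75, adjusted p = 0.00809) and *Fbl* (-0.74, adjusted p = 0.00868), and, in the other direction, the cyclin *Ccnd2* (1.38, adjusted p = 0.00627). *Tert*, the catalytic subunit of telomerase, was the other gene that was higher (0.58, adjusted p = 0.0454). *Ncl* had counts of 26880, 27025 and 29179 in GS, 25539, 27295 and 22461 in DM, and 18894, 13736 and 17262 in NO, so all NO samples lay below all others. Against DM the leading genes were the ribosome assembly factors *Pes1* (-0.80, adjusted p = 0.0111), *Bop1* (-0.71, adjusted p = 0.0185), *Wdr74* (-0.53, adjusted p = 0.019) and *Nolc1* (-0.68, adjusted p = 0.02).

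The number of Myc-induced genes that passed depended on single samples and on the scaling. Without NO replicate 2, 6 were lower and 1 higher in NO vs. GS (median -0.26), and against DM 4 were lower (median -0.29), beside 3.95% and 2.55% of all genes. Without NO replicate 1, 22 and 18 were lower, beside 10.4% and 9.41% of all genes, and without NO replicate 3, 8 and 6, beside 3.45% and 2.2%. Of the genes named above, *Tert* did not pass without NO replicate 2 (adjusted p = 0.137), and the others still passed where a value is given. Over all 9 fits with 1 sample left out, the number lower was 4 to 22 in NO vs. GS, with 4 to 6 when a GS sample was missing, and 4 to 18 in NO vs. DM, with 4 or 5 when a DM sample was missing. Scaled to equal totals, 6 were lower in each of the comparisons, and after quantile normalisation 5. The medians stayed below 0 under each of these settings. No share over all genes is given for the changed scalings or the fits without a GS or DM sample. Those counts therefore cannot be read against a background. An E-box was found in the promoter windows of 14 of the 45 Myc-induced genes in the promoter table (31.1%), and 4 of the 14 genes with it and 6 of the 31 without it were lower in NO vs. GS. Against DM these counts were 1 of 14 and 8 of 31, and the medians were -0.39 in both groups.

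**Figure D4:**
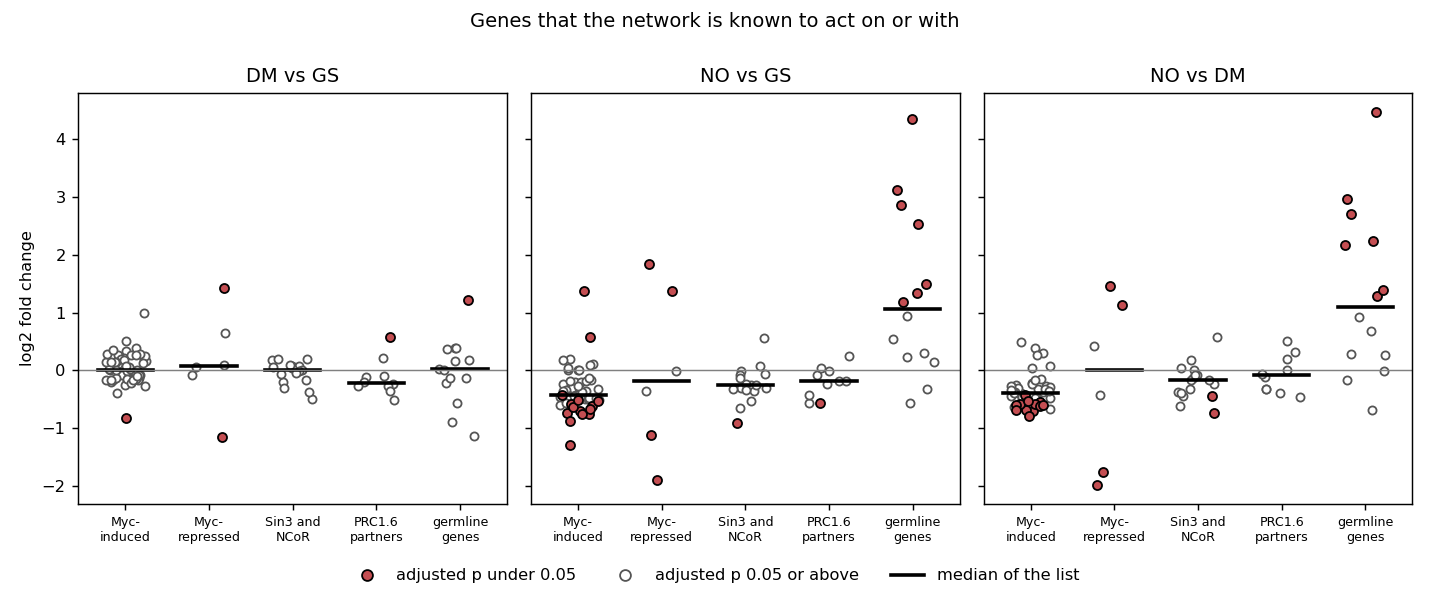
Log2 fold changes (vertical axis) of the genes in 5 lists, 1 point per gene, in DM vs. GS, NO vs. GS and NO vs. DM, with filled points for an adjusted p under 0.05 and black lines for the median of a list. The Myc-induced genes centre on 0.01 in DM vs. GS and on -0.42 and -0.40 in NO vs. GS and NO vs. DM, while the germline genes have medians of 0.02, 1.06 and 1.10.

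Textbook genes repressed by Myc moved in different directions. *Cdkn1a*, the cell cycle inhibitor p21, had counts of 3839, 3758 and 3288 in GS, 1462, 1487 and 1976 in DM, and 2535, 4859 and 3663 in NO. It fell in DM vs. GS (log2 fold change -1.15, adjusted p = 0.0071) and was higher in NO than in DM (1.13, adjusted p = 0.00801), with no overlap in either. *Gadd45a*, a growth arrest gene, rose in DM vs. GS (1.42, adjusted p = 0.00645) and in NO vs. GS (1.84, adjusted p = 0.00111). *Cdkn2b*, the inhibitor p15, was higher in NO than in GS (1.37, adjusted p = 0.0241) and DM (1.46, adjusted p = 0.0254), at 79, 263 and 166 in NO and 47 to 71 in the other samples. *Ndrg1* and *Ndrg2*, named for repression by N-Myc, were lower in NO than in GS (-1.90, adjusted p = 0.000331, and -1.12, adjusted p = 0.0102) and DM (-1.99, adjusted p = 0.000455, and -1.77, adjusted p = 0.00286). *Ndrg1* was at 182, 240 and 262 in NO and at 721 to 1052 elsewhere. The calls of *Cdkn2b* were lost without NO replicate 2 (adjusted p = 0.0728 against GS and 0.0753 against DM), and the other calls named here held. *Cdkn1b*, the last gene of the list of 6, passed in none.

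*Txnip*, the glucose-responsive target of MondoA and Mlx, was higher in NO than in GS. Its counts were 2420, 1970 and 1977 in GS, 3370, 3126 and 3459 in DM, and 3632, 6317 and 4529 in NO. The media did not overlap, and the log2 fold change was 1.15 in NO vs. GS (adjusted p = 0.0019) and 0.65 in DM vs. GS (adjusted p = 0.0604). Both passed without NO replicate 2, at 0.94 (adjusted p = 0.00179) and 0.65 (adjusted p = 0.00831). The other listed targets, *Arrdc4* and *Klf10*, passed in none as reported. Without NO replicate 2, *Arrdc4* was higher in DM vs. GS (0.47, adjusted p = 0.0355). In NO vs. DM, none of the 3 listed targets passed as reported.

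Germline genes that the complex of Mga and Max is known to silence in mESC were higher in NO, and neither *Mga* nor *Max* passed in any comparison. Of 15 genes listed, 14 were in the table and tested. Against GS and against DM alike, 7 of the 14 were higher and none lower by limma, beside 13.4% and 9.01% higher among all genes, with medians of 1.06 and 1.10. *Tdrd1* is among the 7, and its mean over the GS and DM samples alone was not above 5, so it passed the filter through NO and had to differ. Without it, 6 of 13 were higher in each comparison, with medians of 0.94 and 0.92. In DM vs. GS, 1 was higher, *Mael*, a piRNA pathway gene (log2 fold change 1.21, adjusted p = 0.048), beside 4.37% of all genes, with a median of 0.02. No gene of the list was higher there in 6 of the 9 fits with 1 sample left out, and *Mael* did not pass after quantile normalisation (adjusted p = 0.102). *Taf7l*, a germ cell transcription factor subunit on the X chromosome, had counts of 4, 5 and 7 in GS, 4, 8 and 3 in DM, and 53, 321 and 115 in NO. Its log2 fold change was 4.35 in NO vs. GS (adjusted p = 0.00102) and 4.48 in NO vs. DM (adjusted p = 0.00212). *Tdrd1*, a tudor protein of the piRNA pathway, was at 1 to 4 in GS and DM and at 13, 56 and 26 in NO (adjusted p = 0.0046 and 0.0102). *Hormad1*, a meiotic chromosome axis gene, was at 72, 110 and 147 in GS, 52, 67 and 50 in DM, and 173, 420 and 262 in NO, with log2 fold changes of 1.34 (adjusted p = 0.017) and 2.24 (adjusted p = 0.00324). All NO samples of these genes lay above all others, and NO replicate 2 was highest. Marker lists of other cell types moved in different directions in NO vs. DM. Medians were 2.06 for trophoblast (4 of 7 called higher), 1.46 for primitive endoderm (2 of 5) and 1.31 for mesoderm (2 of 5). They were -0.30 for neuroectoderm (1 of 4 lower) and -0.22 for fibroblasts (1 of 3 higher). Against GS the medians were -0.02 for trophoblast (2 higher and 2 lower), 0.91 for primitive endoderm (2 higher) and -0.26 for mesoderm (1 higher and 1 lower). They were -0.50 for neuroectoderm (none called) and 1.47 for fibroblasts (2 of 3 higher). *Mesp1* is the mesoderm gene called higher against GS. It was at 0 to 7 in GS and DM and at 4, 23 and 9 in NO, and passed the filter only through NO. The mesoderm counts and medians therefore rest in part on that filter. The part of these other cell types in the germline values was not tested.

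*Ddx4*, *Slc25a31* and *Tex101* were also higher in both comparisons. Their log2 fold changes were 1.18, 2.53 and 2.87 in NO vs. GS (adjusted p = 0.0428, 0.0164 and 0.0172) and 1.39, 2.17 and 2.70 against DM (adjusted p = 0.0291, 0.0417 and 0.0307). *Mael* was higher in NO than in GS (1.5, adjusted p = 0.00872). *Stag3*, *Stk31*, *Sycp1*, *Sycp3*, *Syce1* and *Dmc1* passed in no comparison as reported, with *Stag3* at 673 to 950, *Stk31* at 194 to 313 and *Dmc1* at 26 to 88 over all samples. Without NO replicate 1, 7 genes were higher and 1 lower in each of NO vs. GS and NO vs. DM, beside 10.4% and 9.41% of all genes lower. The lower genes were *Sycp1* against GS (-0.75, adjusted p = 0.0303) and *Dmc1* against DM (-1.1, adjusted p = 0.0384). The shares of all genes higher were 17% and 14.4%. *Dazl* was higher in NO vs. DM (1.28, adjusted p = 0.0248) and did not pass in NO vs. GS, at 160, 170 and 237 in GS, 109, 107 and 51 in DM, and 144, 265 and 226 in NO. Without NO replicate 2, 3 of the 14 genes were higher in NO than in GS and 3 higher than in DM, beside 9.5% and 4.77% of all genes, with medians of 0.91 and 1.05. *Tdrd1*, which passed the filter through NO and had to differ, is 1 of the 3 in each and is in these medians. The calls lost were those of *Ddx4*, *Slc25a31* and *Tex101* in both comparisons, of *Hormad1* against GS (adjusted p = 0.0534) and of *Dazl* against DM (adjusted p = 0.0786). Without NO replicate 3 the counts were 4 and 3, with *Tdrd1* again in both, beside 9.32% and 4.55% of all genes. They were 4 in NO vs. GS without GS replicate 3 and 4 in NO vs. DM without any 1 of the DM samples. After quantile normalisation, 5 were higher and 1 lower in NO vs. GS and 5 were higher in NO vs. DM. No share over all genes is given for quantile normalisation or for the fits without a GS or DM sample. The low counts of *Tdrd1*, *Taf7l*, *Slc25a31* and *Tex101* in GS and DM limit the precision of their fold changes.

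The E-box occurred in the promoter windows of 10 of the 15 germline genes (66.7%, beside 8.09% of all genes), and GCGGGAA, a sequence bound by E2F6 of the same complex, in either direction, in 6 of 15 (40.0%, beside 5.29%). Among the 9 network genes with an entry, GCGGGAA was found in *Mxd3* alone. Of the germline genes tested, 6 of 10 with an E-box and 1 of 4 without one were higher in NO vs. GS, and 5 of 10 and 2 of 4 in NO vs. DM, and this difference was not tested. *Tdrd1*, which passed the filter through NO and had to differ, is among the higher genes with an E-box in both comparisons. It is also 1 of the 3 genes higher in NO whose windows follow. Windows from 6 genes are shown with the E-box in capitals on the strand of the gene, 3 from genes higher in NO and 3 from genes that passed in no comparison as reported, since both kinds carry it.
Taf7l: cctcttatacCACGTGacagaactcg
Tdrd1: gggctgcgcgCACGTGggagtaaact
Hormad1: aagggtgcgcCACGTGccagtgacag
Stag3: cgctggagccCACGTGacaggactgc
Stk31: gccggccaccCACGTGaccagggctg
Sycp1: gagaacccggCACGTGggaagggaaa
In GRCm38.p6 these lie at chrX:134476524-134476549 (minus strand) for *Taf7l*, chr19:56826188-56826213 (plus) for *Tdrd1*, chr3:95559610-95559635 (plus) for *Hormad1*, chr5:138280329-138280354 (plus) for *Stag3*, chr6:49395474-49395499 (plus) for *Stk31* and chr3:102936179-102936204 (minus) for *Sycp1*. The same 6 letters were thus present upstream of germline genes that rose in NO and of germline genes that did not pass.

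Feedback genes of LIF, Wnt and ERK signalling, 4 in number, were examined in the same fit. *Socs3*, induced by LIF, fell in DM vs. GS (log2 fold change -1.12, adjusted p = 0.000288) and in NO vs. GS (-0.89, adjusted p = 0.000944), and *Axin2*, induced by Wnt signalling, fell as well (-1.96, adjusted p = 0.00261, and -1.69, adjusted p = 0.00341). *Dusp6* and *Spry4*, induced by ERK signalling, rose by 2.36 (adjusted p = 7.21e-05) and 2.46 (adjusted p = 0.000368) in DM and by 1.85 (adjusted p = 0.00042) and 1.23 (adjusted p = 0.0101) in NO, each against GS. Of the 4 genes, *Spry4* also differed between NO and DM (-1.23, adjusted p = 0.0156). Its counts were 685, 1556 and 836 in GS, 4993, 5343 and 5573 in DM, and 2684, 1614 and 2646 in NO. As for *Myc*, replicate 2 was the highest of the GS samples and the lowest of the NO samples. Whether any of these signals acted on *Myc* here was not tested. DM and NO differ from GS in base medium, serum, inhibitors and LIF at once, so their parts cannot be told apart.

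Among 11348 genes with a mean of at least 50, those most like *Myc* by Pearson correlation of log2 values over the 9 samples were *Enox1* (r = 0.995), *Spry4* (r = 0.985) and *Tns3* (r = 0.979). For *Mycn* they included *Aldh1b1* (r = 0.99) and *Mapk11* (r = 0.984), and for *Mycl* they were *Nedd4* (r = 0.99), *Srpr* (r = 0.986) and *Stmn2* (r = 0.982). The samples fall into 3 media and share their libraries, so these values describe likeness only. Next to *Myc*, the non-coding *Pvt1* was higher in NO than in GS (log2 fold change 0.47, adjusted p = 0.0293) and DM (0.48, adjusted p = 0.0358), with counts of 347, 394 and 404 in GS, 378, 382 and 377 in DM, and 502, 543 and 545 in NO. In DM vs. GS, where *Myc* rose, its log2 fold change was -0.01 (adjusted p = 0.988). Both *Pvt1* calls were lost without NO replicate 2 (adjusted p = 0.0568 and 0.0758) and with the replicate block in the fit of all samples and in that of the 6 samples compared. *Mir17hg*, host of a miRNA cluster that Myc is known to induce, passed in none.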

How the data were processed

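Total RNA-Seq of mESC in GS, DM and NO was analysed, with 3 samples per medium grouped by their labels and matched to columns by title. Per the methods and processing notes of the study, the authors aligned Ion Torrent reads to GRCm38 with STAR 2.4.0a, counted reads over exons with featureCounts 1.4.5-p1 and normalised with DESeq2. The deposited values are a score per gene, a count divided by a size factor and rounded by the authors. They are not raw counts, so limma replaced the count model of the study. Depth was estimated from the spacing of low values.

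Values were analysed as log2(value + 1), which understates changes of low genes, for genes with a mean above 5, with limma 3.58.1 in R 4.3.3, all 9 samples in one fit, no covariate and a mean-variance trend. Tests were two-sided with Benjamini-Hochberg adjustment over all 18156 genes. Directions are stated at an adjusted p under 0.05, and changed genes are also at least 2-fold different, the thresholds of the study. The procedure was checked with a self-test on made-up data. Exon lengths and positions were from GENCODE M21. Promoter sequences were from RefSeq (GRCm38.p6), whose starts can differ from those of GENCODE.

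All 10 members are named, with up to 4 genes per list and comparison by smallest adjusted p and the 3 genes most like each Myc gene, of which 1 is not reported here. Genes named beyond this were chosen after their values were seen. Members and lists were chosen with earlier results of these data known. Replicate numbers recur among media. Deviations of same-numbered samples from their group means correlated at 0.16, 0.17 and 0.3 between NO and DM, every pair over 0.1. The numbers were therefore taken as a possible pairing of these samples, although the labels do not state a pairing. The fit as reported did not use this pairing, and only the fits with the replicate block did. For DM and GS they were -0.18, 0.02 and -0.23, and for NO and GS -0.05, 0.05 and -0.11. Alternatives were other filters, pseudocounts, scalings, moderation, 6-sample fits, the replicate block and leaving out each sample. The block over only the 6 samples compared was added after seeing the data. All replicate pairs differed by more than sampling noise.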

Additional observations from a re-analysis of the deposited data

How the results depend on the processing

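The 3 replicates per medium set the precision, and depth limits the germline genes with few reads. Counts of genes below sum the calls over the 3 comparisons. Members changed in DM vs. GS numbered 2, and 0 when at least 4-fold was asked (log2 fold change of 2), 1 without the trend, 1 with vooma weights and 1 to 2 when 1 sample was left out. In NO vs. GS they numbered 1, and 2 with no minimum fold change and 1 to 2 with 1 sample left out. In NO vs. DM they numbered 0, and 2 with no minimum fold change and 0 to 1 with 1 sample left out. The F test called 2 members, and 2 to 5 with 1 sample left out, the 5 without NO replicate 1.

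A fit of only the 6 samples compared gave 1 call for the other network genes, 1 for corepressors, 1 for PRC1.6, 13 for Myc-induced genes, 2 for MondoA and Mlx targets and 0 for non-coding neighbours. With no minimum mean these were 1 for other network genes, 1 for corepressors, 1 for PRC1.6, 1 for turnover and 15 for Myc-induced genes, and with a minimum mean of 50 the germline genes gave 8. Equal totals gave 1 for corepressors, 1 for PRC1.6, 5 for turnover, 15 for Myc-induced genes and 2 for MondoA and Mlx targets. Quantile normalisation gave 0 for other network genes, 1 for corepressors, 1 for PRC1.6, 1 for coactivators, 13 for Myc-induced genes, 2 for MondoA and Mlx targets and 1 for non-coding neighbours. Without the trend there were 0 for other network genes, 1 for corepressors, 0 for PRC1.6, 1 for turnover, 9 for Myc-induced genes, 9 for germline genes and 1 for non-coding neighbours. Vooma weights gave 1 for corepressors and 1 for turnover. The values in the fit as reported were 2 for other network genes, 3 for corepressors, 2 for PRC1.6, 0 for coactivators, 3 for turnover, 28 for Myc-induced genes, 10 for Myc-repressed genes, 1 for MondoA and Mlx targets, 15 for germline genes, 2 for non-coding neighbours and 9 for the feedback genes. Why these counts moved was not tested.

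Leaving out 1 sample, the ranges were 0 to 4 for other network genes, 1 to 6 for corepressors, 0 to 5 for PRC1.6, 0 for coactivators, 0 to 9 for turnover, 12 to 43 for Myc-induced genes, 8 to 10 for Myc-repressed genes, 1 to 3 for MondoA and Mlx targets, 7 to 18 for germline genes, 0 to 2 for non-coding neighbours and 8 to 9 for the feedback genes. For turnover, Myc-induced genes, corepressors and PRC1.6 the highest value was that without NO replicate 1. With the replicate block, PRC1.6 gave 1 in the fit of all samples and 0 in that of the 6 samples compared, and non-coding neighbours gave 0 and 0. The block moved no other list total by more than 1.5 times. With it, in both fits, *L3mbtl2* and *Mael* did not pass in DM vs. GS (adjusted p = 0.057 and 0.0742 with all samples), and *Mxi1* did not pass in NO vs. GS over 6 samples (adjusted p = 0.0746). The block changed no member call beyond those of *Myc*, *Mycn* and *Mycl* given above.

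Some small differences changed sign. In NO vs. GS the log2 fold change of *Mxd3* was 0.06 with equal totals and -0.18 to 0.15 with 1 sample left out, among them 0.09 without GS replicate 1 and 0.15 without NO replicate 2, that of *Mga* was 0.11 after quantile normalisation, that of *Mlx* was -0.06 without GS replicate 1 and -0.08 without NO replicate 1 (range -0.08 to 0.07), and that of *Mycn* was -0.41 to 0.07, with 0.07 without NO replicate 2. In DM vs. GS *Mga* was at -0.07 to 0.20, with -0.07 without DM replicate 2. After quantile normalisation the median of all genes was -0.11 in NO vs. GS, beside -0.02 as reported. The share of higher genes among 2-fold calls in NO was 86% against GS and 79.3% against DM, and 68.5% and 66.2% after quantile normalisation. The *Myc* rise in DM vs. GS and the *Mxd4* rise in NO vs. GS stayed on the same side of the threshold under all alternatives run, except the 4-fold minimum, which *Myc* did not reach. *Myc* did not pass in NO vs. GS after quantile normalisation (adjusted p = 0.0604), without the trend (0.082), with only the 6 samples (0.0679) or with no minimum mean (0.0526), nor against DM without the trend (0.0771). *Mycl* against DM did not pass with equal totals (adjusted p = 0.0704), after quantile normalisation (0.0567), without the trend (0.075) or with only the 6 samples (0.0909). *Mxd4* in DM vs. GS did not pass without the trend (adjusted p = 0.0682) or with vooma weights (adjusted p = 0.0864).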
